A study of Danio rerio with 8 samples.

Results

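The insulin-like growth factor (IGF) axis of zebrafish (Danio rerio) liver was read from 10 genes taken by symbol from the platform's annotation. They were the growth factors igf1, igf2a and igf2b, the binding proteins igfbp1a, igfbp1b, igfbp2a, igfbp2b and igfbp3, and the growth hormone receptors ghra and ghrb. Of these, 9 were measured, by 15 probes, among 15548 named genes. No probe carried the symbol igf2b, which is not analysed here. The RefSeq gene table gives igf2b as an older name of igf2a and igf2a as an older name of igf2b, so names in older sources may be crossed. The table does the same for igfbp2a and igfbp2b.

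In vertebrates, growth hormone from the pituitary binds its receptor on liver cells, and signalling through the JAK2 kinase and STAT5 raises transcription of igf1. The liver secretes IGFs into blood, where binding proteins hold them and set how much reaches the IGF receptor in other tissues. Binding protein 1 of fish is known as a liver gene that goes up in fasting, stress and low oxygen and restrains growth.

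Total RNA of liver was compared on 8 Agilent arrays with a Cy5 (red) and a Cy3 (green) sample on each, in a series made to choose probes that respond to temperature. The groups were 18, 26 and 34 °C on day 28, with 2 samples each, and 26 °C on day 4, with 1. The labels call the replicates biological and give no strain, sex, age or number of fish, so p-values measure the spread between these samples. Neighbouring arrays of the loop share a sample, and each sample lay on 2 arrays, or on 3 for replicate 1 at 34 °C and replicate 2 at 26 °C.

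The deposited values are log2 ratios of the dyes on an array. From the 8 ratios of a gene, a least-squares fit gave each of the 7 RNA samples a level on the log2 scale, relative to the mean of the 7. A level therefore shows how a gene varied among samples, and levels of different genes cannot be set against each other. The direction of a ratio is likely red over green, the order that limma uses and in which array titles give the samples. Were it green over red, every signed ratio, level and change here turns, while sizes, p-values and correlations stay. In bulk RNA, fewer cells of a type and less RNA per cell cannot be told apart.

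Some of the genes varied among samples and others hardly did. The SD of the 7 levels was 1.04 for igfbp1a, 1.01 for igfbp1b, 0.894 for igfbp2a, 0.847 for igf2a, 0.478 for ghrb and 0.450 for igf1. It was 0.115 for igfbp3, 0.0707 for ghra and 0.0358 for igfbp2b, against a median of 0.0665 over all 35434 features. The SD of igfbp1a exceeded that of 99.0% of all features, that of igfbp3 71.8%, that of ghra 53.4% and that of igfbp2b 15.5%. With ratios alone, a gene near background cannot be told from a gene of constant level.

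**Figure D1:**
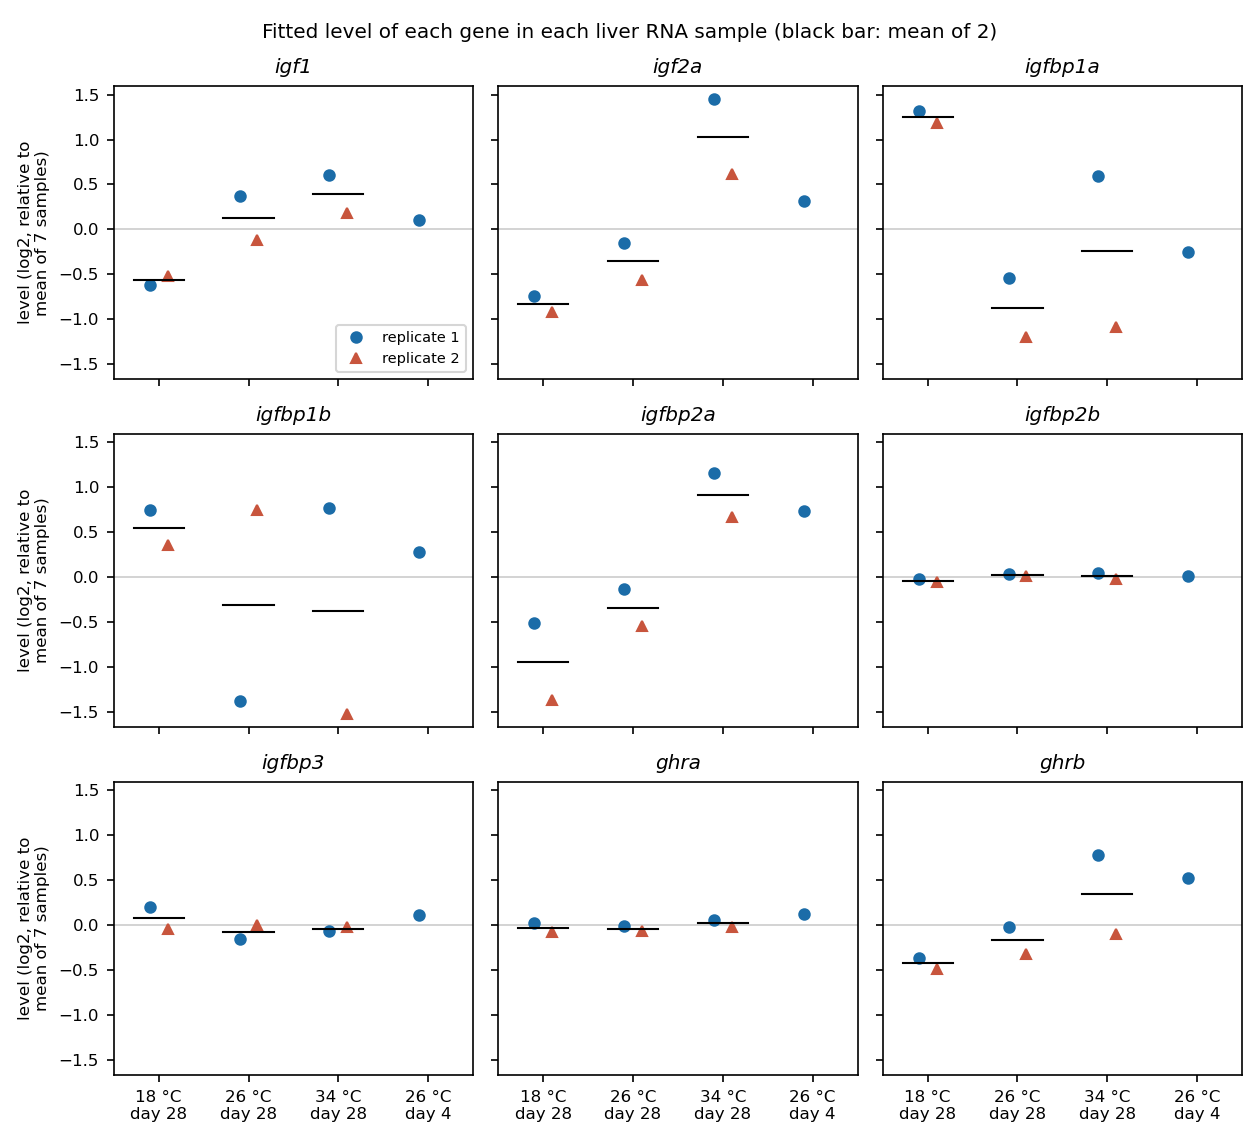
Levels of the 9 measured genes (y axis, log2 relative to the mean of the 7 samples) by temperature and day (x axis), with circles for replicate 1, triangles for replicate 2 and a black bar for the mean of 2. Levels of igf1, igf2a and igfbp2a run upward from 18 to 34 °C, igfbp1a is highest at 18 °C, and igfbp2b, igfbp3 and ghra stay within 0.20 of 0.

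The ligand igf1, the main growth factor that liver makes under growth hormone, had its lowest levels at 18 °C. They were -0.62 and -0.52 in replicates 1 and 2 at 18 °C, 0.37 and -0.12 at 26 °C, 0.60 and 0.19 at 34 °C, and 0.10 on day 4 at 26 °C. The 18 °C samples lay below all 5 others, while the 26 and 34 °C samples overlapped.

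The single arrays, from which the levels were fitted, are listed here too. For this and the other genes they are the same data as the levels and no separate evidence. The array of replicate 1 at 34 °C over replicate 1 at 18 °C gave 1.18, and the arrays of 18 °C replicate 2 over 26 °C replicate 1 and of 18 °C replicate 1 over day 4 gave -0.80 and -0.77. The array of 26 °C replicate 2 over 18 °C replicate 2 gave 0.48. The 3 arrays that joined 26 and 34 °C gave -0.16 and -0.86 for 26 over 34 °C and 0.26 for 34 over 26 °C. The last array, day 4 over replicate 2 at 34 °C, read -0.13. Both probes of igf1 had the same sign on 7 of 8 arrays.

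The other ligand, igf2a, a zebrafish form of insulin-like growth factor 2, was highest at 34 °C. Its levels were -0.74 and -0.92 at 18 °C, -0.15 and -0.57 at 26 °C, 1.45 and 0.61 at 34 °C, and 0.31 on day 4. The 3 temperatures of day 28 did not overlap. Replicate 1 at 34 °C stood 0.83 above replicate 2, the widest gap within a pair for this gene. Its single probe read 1.74 on the array of 34 over 18 °C, -1.92 and -2.55 on those of 26 over 34 °C, and 0.73 on that of 34 over 26 °C. Between 18 and 26 °C it read 0.022 for 26 over 18 °C and -1.10 for 18 over 26 °C, on arrays of opposite dye order, and the fitted dye term of igf2a, -0.41, was the largest in size among the 9 genes. The arrays of 18 °C over day 4 and of day 4 over 34 °C read -1.50 and -0.75.

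Binding protein igfbp1a ran the other way from the ligands at the cold end. Its levels were 1.32 and 1.18 at 18 °C, -0.55 and -1.20 at 26 °C, 0.59 and -1.08 at 34 °C, and -0.26 on day 4. The 18 °C samples lay above all others, and the 34 °C replicates differed by 1.67, so that replicate 2 at 34 °C lay inside the range of the 26 °C samples.

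On single arrays the mean of the 3 igfbp1a probes was -2.80 for 26 over 18 °C and 1.31 for 18 over 26 °C. It was 1.43 for 18 °C over day 4, and -0.87 for 34 over 18 °C. Each of these 4 arrays has an 18 °C sample, and on each the ratio pointed to a higher level at 18 °C. The arrays of 26 over 34 °C gave -1.55 and -1.74, that of 34 over 26 °C gave -0.02, and day 4 over 34 °C gave 0.68. The 3 probes had the same sign on 6 of 8 arrays. The exceptions were the arrays that hold replicate 2 at 34 °C, whose level was -1.71, -0.92 and -0.62 by probes 1, 2 and 3.

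Its paralogue igfbp1b varied as much, but between replicates rather than between temperatures. Levels were 0.75 and 0.36 at 18 °C, -1.38 and 0.75 at 26 °C, 0.77 and -1.52 at 34 °C, and 0.28 on day 4. The lowest samples were replicate 1 at 26 °C and replicate 2 at 34 °C, and replicate 1 minus replicate 2 was -2.13 at 26 °C and 2.29 at 34 °C. The single igfbp1b probe read -1.79 for 26 over 34 °C between the replicates numbered 1, and -1.96 for 34 over 26 °C between those numbered 2. The array of 26 °C replicate 2 over 34 °C replicate 1 read 0.27, and that of 26 over 18 °C read 0.75. The array of 18 °C replicate 2 over 26 °C replicate 1 read 2.09, and day 4 over 34 °C replicate 2 read 2.12. The arrays of 34 over 18 °C and of 18 °C over day 4 read 0.33 and 0.78. The 2 lowest samples were thus low on each array that held them. The largest residual of the fit was 0.0421, but with 1 residual degree of freedom it says little about these samples.

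**Figure D2:**
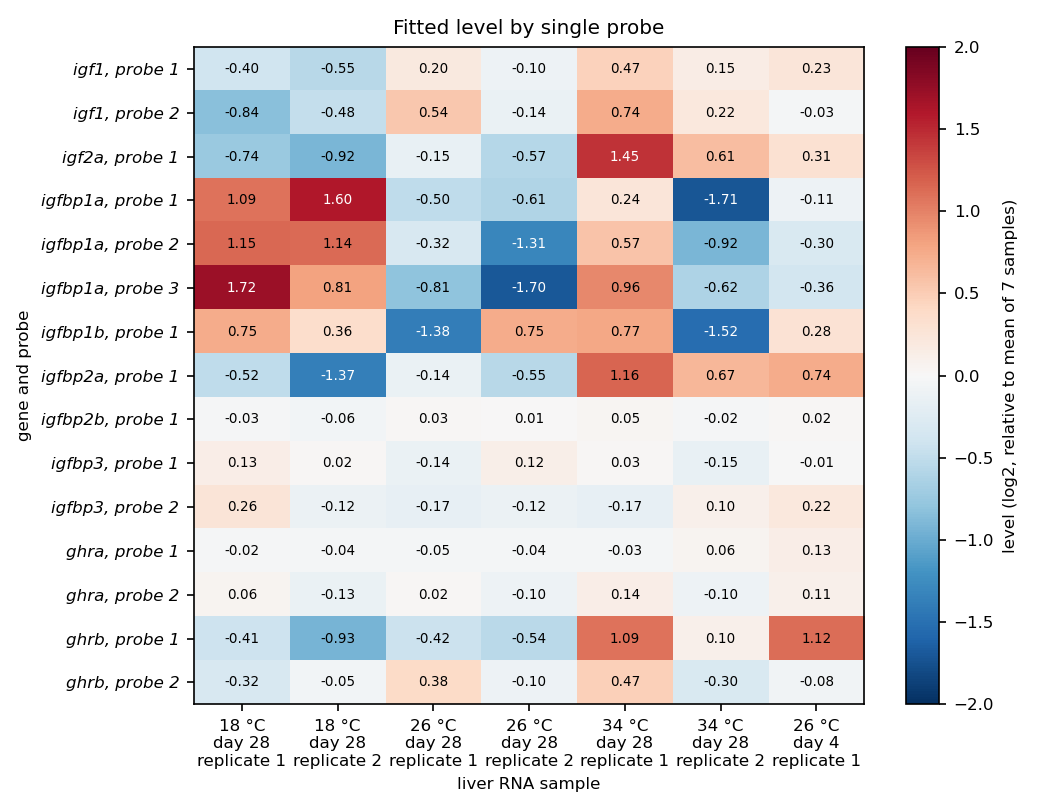
Level of each of the 15 probes (rows) in each RNA sample (columns), in log2 relative to the mean of the 7 samples, with red above and blue below 0 and the value printed in each cell. All 3 igfbp1a probes are positive in the 18 °C samples, and igfbp1b is lowest in replicate 1 at 26 °C and replicate 2 at 34 °C.

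The binding protein igfbp2a, of a family abundant in plasma, followed the ligands. Levels were -0.52 and -1.37 at 18 °C, -0.14 and -0.55 at 26 °C, 1.16 and 0.67 at 34 °C, and 0.74 on day 4. The 34 °C samples lay above all other samples of day 28, and the 18 and 26 °C samples overlapped slightly. The array of 34 over 18 °C read 1.47, those of 26 over 34 °C -1.51 and -1.93, and that of 34 over 26 °C 1.00. The 2 arrays of 18 and 26 °C read 0.62 for 26 over 18 °C and -1.44 for 18 over 26 °C. The array of 18 °C over day 4 read -1.46 and day 4 over 34 °C read -0.14.

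The other binding proteins and one receptor hardly moved. The single probe of igfbp2b, the paralogue of igfbp2a, stayed within 0.128 of 0 on all 8 arrays, and its levels ran from -0.056 to 0.046. Levels of igfbp3, the main plasma carrier of IGFs in mammals, ran from -0.15 to 0.19, and its 2 probes correlated at 0.142 over the 8 arrays. Levels of the growth hormone receptor ghra ran from -0.085 to 0.12.

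The second growth hormone receptor, ghrb, varied. Its levels were -0.36 and -0.49 at 18 °C, -0.022 and -0.32 at 26 °C, 0.78 and -0.098 at 34 °C, and 0.52 on day 4. By the mean of its 2 probes the 18 °C samples were the lowest, and replicate 1 at 34 °C stood 0.88 above replicate 2. The ghrb probes differed in size and in part in sign. Probe 1 had levels of 1.09 and 0.10 at 34 °C and 1.12 on day 4, and probe 2 had 0.47, -0.30 and -0.078 there. By neither probe alone were the 18 °C samples the 2 lowest. Probe 1 had -0.41 and -0.93 at 18 °C and -0.42 and -0.54 at 26 °C. Probe 2 had -0.32 and -0.051 at 18 °C and 0.38 and -0.10 at 26 °C.

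The contrast between 34 and 18 °C on day 28 asks how the axis differed over the whole temperature range. Both ligands and igfbp2a had positive values, and both igfbp1 paralogues had negative ones. On the log2 scale igf2a had 1.86 ± 0.31 (SE, 2 samples a group, limma adjusted p = 0.0834), that of igfbp2a 1.86 ± 0.35 (adjusted p = 0.102) and that of igf1 0.96 ± 0.22 (adjusted p = 0.139). For igfbp1a it was -1.50 ± 0.59 (adjusted p = 0.388), for igfbp1b -0.93 ± 1.04 (adjusted p = 0.858) and for ghrb 0.77 ± 0.31 (adjusted p = 0.397). None passed the threshold of 0.05 adjusted over all features.

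So 0 of 9 genes were called at 34 against 18 °C, where limma called 348 of all 35434 features, or 0.982%. At an unadjusted p below 0.05 stood 3 of the 9, igf1, igf2a and igfbp2a, where 13.9% of all features did. The groups did not overlap for 6 of 9 genes, against 36.9% of all features, and the 6 include igfbp2b with its value of 0.052 ± 0.044. The median value over the 9 genes was 0.052 and their median size 0.93, beside 0.00086 and 0.0536 over all features. The intervals at 95% ran from 1.03 to 2.69 for igf2a, from 0.93 to 2.79 for igfbp2a, from 0.39 to 1.54 for igf1 and from -3.06 to 0.067 for igfbp1a. When limma was fitted on the arrays directly, which treats arrays that share a sample as independent, igf2a, igfbp2a and igf1 passed, with adjusted p-values of 0.00898, 0.0112 and 0.0164. Generalized least squares passed igf2a (adjusted p = 0.0416) and igfbp2a (adjusted p = 0.0456) too. It takes into account that arrays share samples, with equal variance of samples and arrays assumed and not estimated. The value of igfbp1b turned to 0.21 without replicate 2 at 34 °C, and that of igfbp1a was -0.66 without that sample and -2.33 without replicate 1 at 34 °C.

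**Figure D3:**
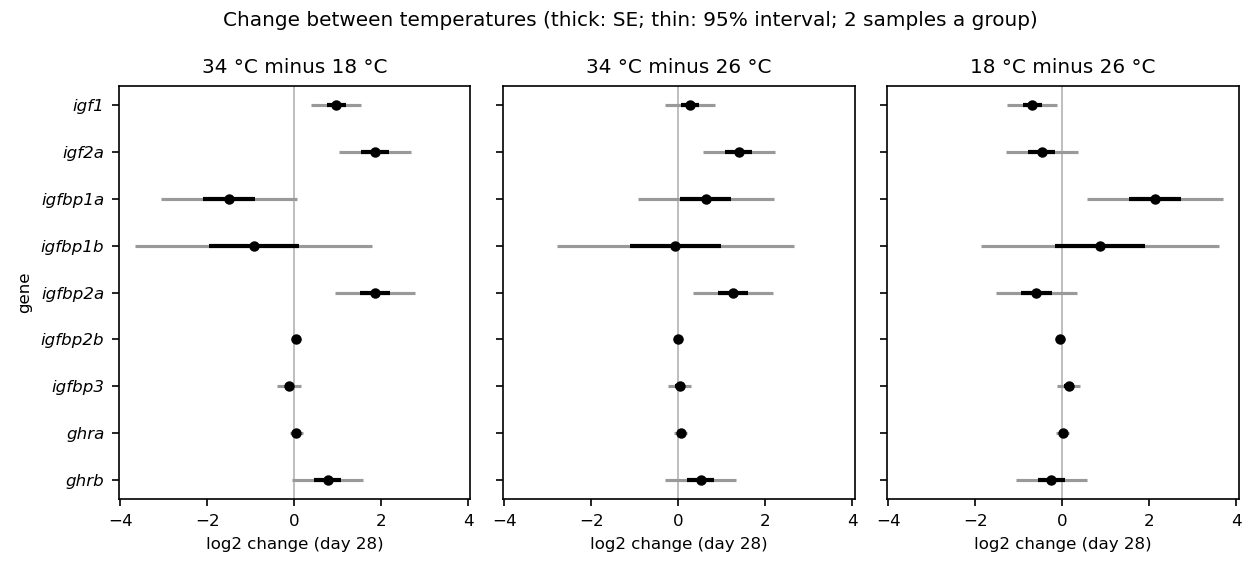
Change of each gene between temperatures on day 28 (x axis, log2; dots with thick bars for the SE and thin lines for the 95% interval, 2 samples a group) in 3 comparisons. Intervals are not adjusted for the number of features. Those of igf1, igf2a and igfbp2a at 34 against 18 °C lie above 0, as do those of igf2a and igfbp2a at 34 against 26 °C. At 18 against 26 °C that of igfbp1a lies above 0 and that of igf1 below. Those of igfbp1b are the widest.

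The step from 26 to 34 °C covers the warm part of the range. Here igf2a had 1.39 ± 0.31 (limma adjusted p = 0.313) and igfbp2a 1.26 ± 0.35 (adjusted p = 0.392), with 34 °C samples above the 26 °C samples for these 2 of 9 genes, against 38.8% of all features with groups that did not overlap. The value of igf1 was 0.27 ± 0.22, and 0.029 to 0.85 when 1 sample or array was left out (lowest without replicate 2 at 26 °C). That of ghrb was 0.51 ± 0.31, and 0.075 to 1.29 (lowest without replicate 1 at 34 °C). Both were highest without the array of 34 over 26 °C. For igfbp1a it was 0.63 ± 0.59, which turned to -0.21 without replicate 1 at 34 °C and to -0.59 without the array of 34 over 26 °C, and for igfbp1b -0.064 ± 1.04, which turned to 1.08 without replicate 2 at 34 °C and to 1.00 without replicate 2 at 26 °C. None of the 9 was called, nor was any of all 35434 features (0%). An unadjusted p below 0.05 was reached by igf2a and igfbp2a, beside 8.79% of all features.

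The step from 26 to 18 °C covers the cold part. The largest value among the 9 was that of igfbp1a, 2.12 ± 0.59 at 18 against 26 °C (limma adjusted p = 0.811, 95% interval 0.56 to 3.69). Its size exceeded that of 99.96% of all features. For igf1 the value was -0.69 ± 0.22 (adjusted p = 0.922), for igfbp2a -0.60 ± 0.35, for igf2a -0.47 ± 0.31 and for ghrb -0.26 ± 0.31. When 1 sample or array was left out, igf1 ran from -1.11 to -0.45, igf2a from -0.85 to -0.26 and ghrb from -0.81 to 0.052. In such fits igfbp2a ran from -1.03 without replicate 1 to -0.17 without replicate 2 at 18 °C. For igfbp1b it was 0.87 ± 1.04, and -0.20 without replicate 1 at 26 °C. None of the 9 was called, where 1 of all features was (0.00282%). The unadjusted p was below 0.05 for igfbp1a and igf1, beside 4.43% of all features, and the groups did not overlap for 5 of 9 genes, against 25.2%.

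The warm and the cold step share the 26 °C samples, so their values for a gene are not independent. For igf2a they were 1.39 from 26 to 34 °C and -0.47 at 18 against 26 °C, for igfbp2a 1.26 and -0.60, and for igf1 0.27 and -0.69. A contrast of both extremes against 26 °C tests whether the middle temperature lies off their mean. It was 2.75 ± 1.03 for igfbp1a (limma unadjusted p = 0.0475, adjusted p = 0.9995), and none of the 9 genes or of all features was called (0%). An unadjusted p below 0.05 was reached by 2.95% of all features. The mean level of igfbp1a was lowest at 26 °C, at -0.88, but replicate 2 at 34 °C had -1.08. By probe 1 alone the mean was -0.73 at 34 °C and -0.56 at 26 °C. The contrast was -0.42 ± 0.38 for igf1 and 0.92 ± 0.54 for igf2a.

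Day 4 at 26 °C was 1 sample, assumed to vary like the others. Against day 28 at 26 °C, igfbp2a had 1.08 ± 0.43, ghrb 0.69 ± 0.38, igf2a 0.67 ± 0.38, igfbp1a 0.62 ± 0.73 and igf1 -0.023 ± 0.27. No gene or other feature was called (0%), with an adjusted p of at least 0.645 for all 9.

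Other genes of the pathway had small values for the most part. Of the 5 receptors for IGFs and insulin, igf1ra, igf1rb, igf2r, insra and insrb, 0 passed in any comparison of day 28, with medians from -0.022 to -0.0030. At 34 against 18 °C the IGF receptor gene igf1rb had 0.096 ± 0.052, the receptor igf2r -0.059 ± 0.042 and the insulin receptor insrb 0.34 ± 0.24. Of 13 further binding proteins, proteases and stanniocalcins 6 were measured, with values from -0.072 to 0.10 at 34 against 18 °C and 0 called. Among them igfbp7 had 0.082 ± 0.055, igfbp5a -0.072 ± 0.071 and igfbp5b 0.10 ± 0.11. In the RefSeq gene order igfbp5a lies next to igfbp2a and igfbp5b next to igfbp2b, and igfbp3 lies next to igfbp1a. In that last pair igfbp1a had 2.12 and igfbp3 0.15 at 18 against 26 °C.

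Of 15 measured genes of growth hormone and prolactin receptor signalling, 9 were positive and 6 negative at 34 against 18 °C, with 0 called and a median of 0.018. The smallest p belonged to socs1a, a feedback inhibitor of JAK kinases, with levels of 0.61 and 1.09 at 18 °C, -0.67 and -0.49 at 26 °C, -0.59 and -0.52 at 34 °C and 0.57 on day 4. Its 18 °C samples were the 2 highest, as for igfbp1a. The value of socs1a at 34 against 18 °C was -1.41 ± 0.17 (limma adjusted p = 0.0536), and the adjusted p ran from 0.00725 on the arrays directly to 0.533 after scaling the arrays. It ran from 0.0420 to 0.927 when 1 sample or array was left out. The JAK2 kinase genes had the opposite sign, 0.54 ± 0.087 for jak2a (adjusted p = 0.0778) and 0.95 ± 0.17 for jak2b (adjusted p = 0.0943). For each kinase the lowest samples were those of 18 °C, at -0.40 and -0.28 for jak2a and at -0.71 and -0.32 for jak2b. These genes were named because they had the smallest p of the 15. The other socs and cish genes of the list had values of both signs. At 34 against 18 °C socs3b had 0.26 ± 0.062 (limma adjusted p = 0.155) and socs3a -0.17 ± 0.34. There socs2 had 0.0036 ± 0.047, cisha -0.061 ± 0.16 and cishb 0.018 ± 0.042. The value of stat5b was 0.71 ± 0.58 (limma adjusted p = 0.780), with levels of 0.29 and -1.18 at 18 °C.

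Below the insulin and IGF receptors, 1 of 32 measured genes passed at 34 against 18 °C, where 0.982% of all features did, so the count says nothing about the list. It was eif4ebp2, which encodes a repressor of cap-dependent translation. Its levels were -0.31 and -0.47 at 18 °C, -0.0024 and 0.11 at 26 °C, 0.36 and 0.33 at 34 °C and -0.018 on day 4, so the 3 temperatures of day 28 did not overlap. It was higher at 34 °C by 0.73 ± 0.074 (limma adjusted p = 0.0424). The call was lost without any 1 of the 6 samples of day 28, with values from 0.65 to 0.81. Over all fits without 1 sample or array the value ran from 0.59 to 0.90, and without 1 array the limma adjusted p reached 0.665. The related gene eif4ebp3l of this list went the other way at 34 against 18 °C. Its value was -1.23 ± 0.44 (limma adjusted p = 0.330), and it was not called. Of the 32, 13 were positive and 19 negative, and the list median was -0.026.

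Among 8 measured hormones and further ligands 0 passed. The insulin genes had 1.02 ± 0.68 for ins and -0.51 ± 0.14 for insb at 34 against 18 °C (limma adjusted p = 0.702 and 0.206), and smtla, a somatolactin, had 0.062 ± 0.067. The RNA-binding proteins named for igf2 mRNA are not part of the secreted axis. They had 0.27 ± 0.26 for igf2bp3, -0.018 ± 0.036 for igf2bp2a and -0.015 ± 0.045 for igf2bp1, with 0 of 3 called.

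**Figure D4:**
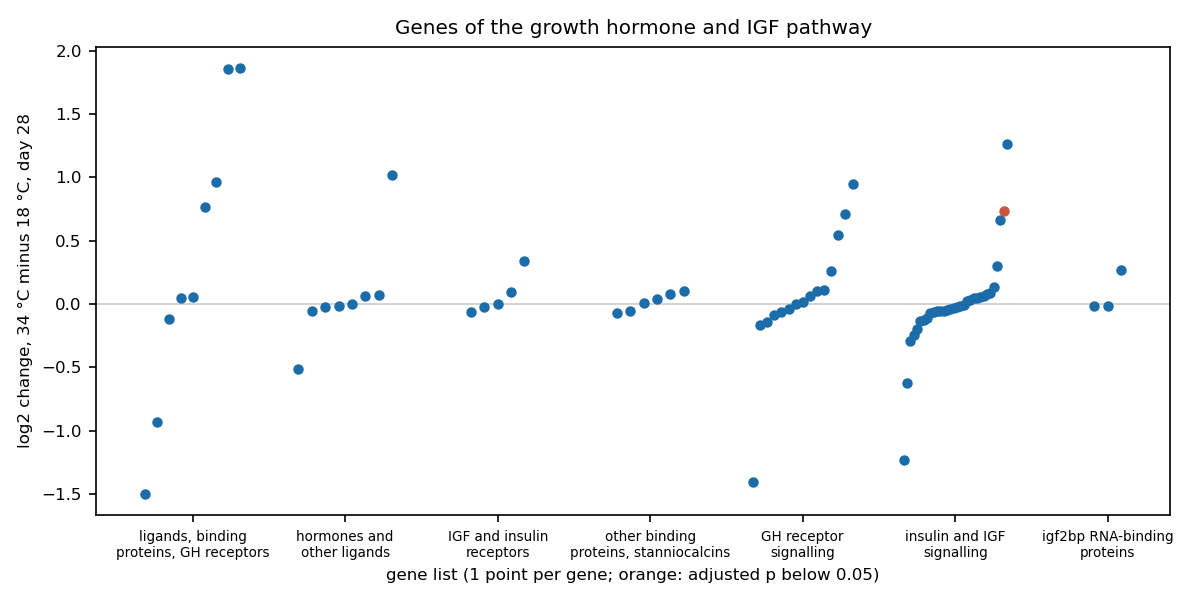
Change at 34 against 18 °C on day 28 (y axis, log2) of each measured gene in 7 lists of the growth hormone and IGF pathway, 1 point a gene, sorted within a list. The 1 orange point is eif4ebp2, the 1 gene past the threshold, and igf2a and igfbp2a are the highest points.

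Over the 7 samples, igf2a and igfbp2a had the most alike levels of the 9 genes (Pearson r = 0.945), and igf1 correlated with them at 0.862 and 0.806 and with ghrb at 0.790. The r of igfbp1a was -0.485 with igf1, -0.321 with igfbp2a, -0.225 with igf2a and 0.521 with igfbp1b. These are descriptions over 7 samples that share arrays. Each gene's levels are relative to its own mean, so only the order of samples can be read from a difference between 2 genes, not its sign. The difference between the levels of igfbp1a and igf1 in a sample was 1.94 and 1.70 at 18 °C, -0.91 and -1.09 at 26 °C, -0.015 and -1.27 at 34 °C and -0.36 on day 4. That it was highest in the 18 °C samples follows from igfbp1a being highest and igf1 lowest there, and adds no result. The difference between igf2a and igf1 was 0.84 and 0.43 at 34 °C, and -0.12, -0.40, -0.51 and -0.45 in the samples at 18 and 26 °C of day 28.

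Likeness was also read over the 3016 other named genes whose levels had an SD of at least 0.3. Nearest to igf1 stood ND3, a mitochondrially encoded respiratory subunit (r = 0.994), slc13a5a (0.987), arl11 (0.986), ugt1ab (0.981) and akr1b1.1 (0.971). Nearest to igfbp2a stood gstt1b (0.989), rnasel2 (0.988), tdo2a, a tryptophan dioxygenase (0.987), c3b.2, a complement gene (0.986), and cd9a (0.984). An r above 0.9 was reached by 128 genes for igf1 and 156 for igfbp2a, but by 2 for igfbp1a, ppp1r15a, a phosphatase subunit of the stress response (0.932), and the helicase pif1 (0.918). Next for igfbp1a came nfkbiab, an inhibitor of NF-kappa-B (0.881), gadd45ga, a growth arrest gene (0.874), and sec61g (0.862). For ghra, whose levels hardly varied, the nearest were atp5pd (0.966), ppdpfa (0.948), sec23b (0.941), pdha1a (0.939) and ncoa5 (0.939). All these genes were picked as the highest of many candidates over 7 samples, so a high r alone says little. None of the genes named here as nearest to igf1, igfbp2a, igfbp1a or ghra was called at 34 against 18 °C. The lowest limma adjusted p was 0.0509, for cd9a. For those nearest to igfbp1a it ran from 0.198 for sec61g to 0.680 for gadd45ga.

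Markers of hepatocytes and of oocytes included genes called at 34 against 18 °C, where 0.982% of all features were called. Of 22 measured hepatocyte markers 21 were positive and 2 called, with a median of 1.57 (range -0.022 to 2.83). Their median level was -0.45 and -0.99 at 18 °C, 0.033 and -0.27 at 26 °C, 1.04 and 0.31 at 34 °C and 0.077 on day 4, an order close to that of igf1, igf2a and igfbp2a. Of 20 oocyte markers 19 were negative and 4 called, with a median of -2.34, and median levels from 0.77 to 1.55 at 18 °C, 0.031 to 0.090 at 26 °C and -1.22 to -0.70 at 34 °C. Exocrine pancreas markers had a median of 1.56 with 23 of 25 positive and 0 called, and differed between the 26 °C replicates of day 28, at 0.76 and -1.23. Medians of blood and immune, of endocrine pancreas and of stellate, endothelial and biliary markers lay within 0.13 of 0 in every sample, with 0 called at 34 against 18 °C. Single genes of these lists had values there from -0.58 to 1.03 for blood and immune, -0.51 to 1.28 for endocrine pancreas and -2.38 to 0.89 for stellate, endothelial and biliary markers. Ratios do not show whether a marker is absent.

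Set among the 22 hepatocyte markers, the values of igf2a and igfbp2a at 34 against 18 °C each had 15 markers below and 7 above, that of igf1 4 below and 18 above, and that of ghrb 3 below and 19 above. With ratios read the other way, below and above change places. The values of igfbp1a, igfbp1b and igfbp3, a gene that hardly moved, lay below all 22, and at 18 against 26 °C above all 22. The lowest marker had -0.022 and, at 18 against 26 °C, the highest 0.074, so small values lie beyond all 22. Of all 35434 features, 17521 were negative at 34 against 18 °C and 17507 positive at 18 against 26 °C. These counts go by sign alone, so fewer features lay beyond all 22, and how many was not counted. At 18 against 26 °C the size of igfbp2b, 0.061, exceeded that of 65.4% of all features. For igfbp1b the place beyond all 22 rests on single samples. Its value at 34 against 18 °C was 0.21 without replicate 2 at 34 °C. At 18 against 26 °C it was -0.20 without replicate 1 at 26 °C. With the hepatocyte marker median of its sample taken off, the level of igfbp1a was 1.77 and 2.18 at 18 °C, -0.58 and -0.93 at 26 °C, -0.45 and -1.40 at 34 °C and -0.33 on day 4. The same step left igf1 at -0.17 and 0.48 at 18 °C, 0.33 and 0.15 at 26 °C, -0.43 and -0.13 at 34 °C and 0.024 on day 4. The 34 °C samples of igf1 then lay below those of 26 °C, and the 18 °C samples overlapped both. The step left igf2a at -0.29 and 0.075 at 18 °C, -0.18 and -0.29 at 26 °C, 0.41 and 0.30 at 34 °C and 0.24 on day 4. For igfbp2a it left -0.066 and -0.37 at 18 °C, -0.17 and -0.27 at 26 °C, 0.13 and 0.35 at 34 °C and 0.66 on day 4. This rescaling moves the median of all features by -1.40 at 34 against 18 °C, so it was used for values only, and it was chosen after seeing the data. The part of cell makeup in the values of these genes was not tested.

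**Figure D5:**
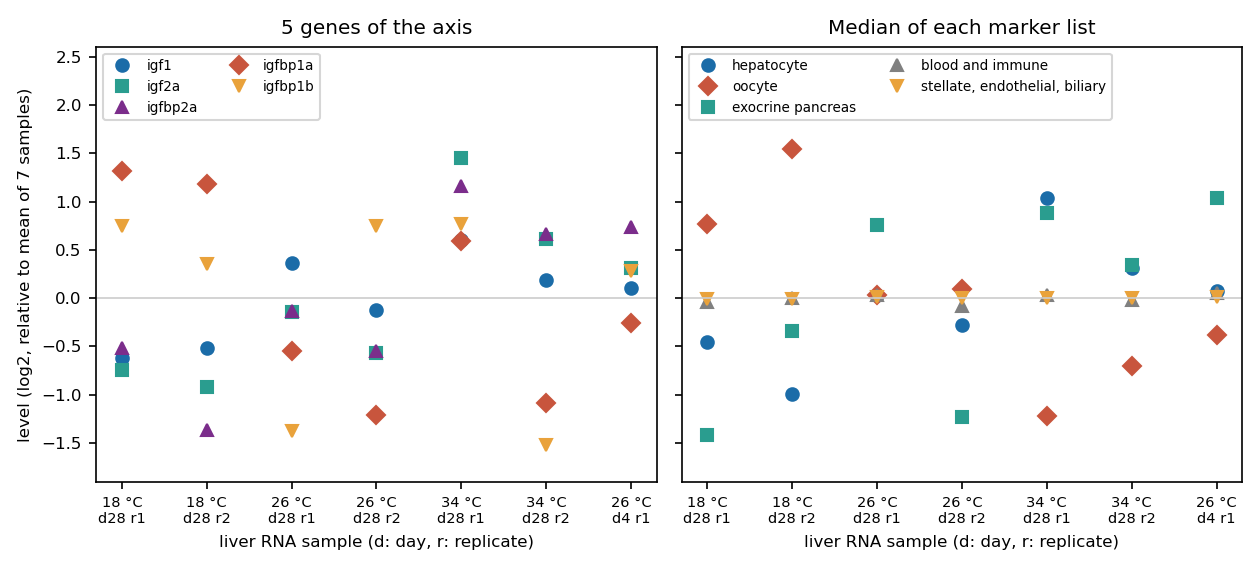
Levels (y axis, log2 relative to the mean of the 7 samples) in each RNA sample (x axis) of 5 genes of the axis on the left and of the median of 5 marker lists on the right. The hepatocyte median is highest in replicate 1 at 34 °C, as are igf1, igf2a and igfbp2a, while igfbp1a is highest at 18 °C, where the oocyte median is highest too.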

How the data were processed

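The authors deposited 1 log2 ratio per probe and array, for 43603 probes on 8 arrays. Per the submitters' processing notes they used limma. No version, background correction, normalization or spot filter was stated. Base 2 was inferred: deposited values ran from -8.96 to 8.03, and log10 ratios of 16-bit scans stop at 4.82. Array medians lay within 0.00385 of 0, and 43.2% to 82.8% of probes within 0.1.

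Gene symbols came from GEO's platform annotation and were brought up to date by gene ID or accession with RefSeq's GRCz12tu gene table. In all, 23717 probes (54.4%) had 1 symbol. The rest, with any that had several, are unnamed here. Coordinates are left out because the array's build was not stated. Probes of a symbol were averaged, which left 35434 features.

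The 8 ratios of a feature were fitted by least squares with the 7 RNA samples and the dye as terms (1 residual degree of freedom). Under R 4.3.3, lmFit and eBayes of limma 3.58.1 were run on the levels for the 4 groups (3 residual degrees of freedom and 1.63 from the prior). P-values are two-sided and adjusted by Benjamini-Hochberg over all features, with a threshold of 0.05. Errors after ± are moderated standard errors. Samples on the same array have linked errors, which limma was not told of except under generalized least squares. The steps were run on simulated data with planted changes, where the check asked only that the largest came back near their size. How often smaller changes would be called is not given here.

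All measured members are named. From each pathway list the called genes are named, or else the 3 with the smallest p at 34 against 18 °C, and for igf1, igfbp1a, igfbp2a and ghra the 5 genes of highest r, leaving out clone and locus names. That rule also named igf2b, which has no probe. Outside the rule, stat5b is given because the opening names STAT5. The other socs and cish genes and eif4ebp3l are given too, beside socs1a and eif4ebp2. Members and lists were chosen with earlier results of these data known. Alternatives were other fits, normalizations, single probes, and leaving out each sample or array. Levels were fitted again without an array, but not without a sample, which was left out of the comparison alone. The number of RNA samples limits the precision.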

Additional observations from a re-analysis of the deposited data

How the results depend on the processing

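No value of the 9 genes passed in the main analysis. Of 654 values under the other settings, 602 kept their direction and their side of the threshold, 8 passed and 44 turned in sign. Some settings could not turn a sign, so the 602 overstate how steady the directions are. Named features alone, a robust prior, a replicate block and leaving out the day 4 sample keep each change and alter its error alone. So does leaving out a sample of the temperature that is not in the comparison, since levels were not fitted again. Those that passed were igf1, igf2a and igfbp2a at 34 against 18 °C and igf2a (1.53) and igfbp2a (1.19) at 34 against 26 °C with limma on the arrays directly, igf2a (1.92) and igfbp2a (1.88) at 34 against 18 °C by generalized least squares, and igfbp2a in the fit with a replicate block. At 34 against 18 °C, no fit without 1 sample or array turned igf1 (0.67 to 1.31), igf2a (1.44 to 2.28), igfbp2a (1.43 to 2.28), igfbp1a (-2.33 to -0.66) or ghrb (0.33 to 1.24). In such fits igfbp1b ran from -2.08 to 0.21, igfbp2b from -0.077 to 0.21, igfbp3 from -0.34 to 0.068 and ghra from -0.045 to 0.16. At 34 against 26 °C they gave -0.59 to 1.47 for igfbp1a, -1.21 to 1.08 for igfbp1b, -0.043 to 0.24 for igfbp2b and -0.33 to 0.11 for igfbp3, and at 18 against 26 °C -0.20 to 1.93 for igfbp1b, -0.24 to 0.040 for igfbp2b, -0.12 to 0.083 for ghra and -0.81 to 0.052 for ghrb. Among other genes at 34 against 18 °C, they gave -0.14 to 0.23 for smtla, -0.26 to 0.51 for igf1rb, -0.36 to 0.94 for insrb, -0.16 to 0.012 for igfbp5a, -0.33 to 0.62 for igfbp5b, -0.41 to 1.07 for igf2bp3, -0.083 to 0.059 for igf2bp2a and -0.048 to 0.018 for igf2bp1.

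At 34 against 26 °C, igfbp1b turned to 1.28 after scaling the arrays and 0.067 after quantile normalization, igfbp3 to -0.050 on the arrays directly and -0.0055 by generalized least squares, and single probes of igfbp1a, igfbp3 and ghrb gave -0.18, -0.049 and -0.052. At 18 against 26 °C ghra turned to -0.0060 on the arrays directly, -0.038 after scaling and -0.028 after quantile normalization. The causes were not tested.

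The 348 features called at 34 against 18 °C became 2994 on the arrays directly, 707 by generalized least squares, 226 with single probes, 143 after quantile normalization and 0 after scaling, and 0 to 348 without 1 sample or array. The count of 0 at 34 against 26 °C became 1372 on the arrays directly and 0 to 2 without 1 sample or array. The 1 called at 18 against 26 °C became 29 on the arrays directly, 0 by generalized least squares, after scaling, after quantile normalization, with single probes and with a replicate block, and 0 to 1 without 1 sample or array. Both extremes against 26 °C gave 2 on the arrays directly. With a replicate block 237 were called at 34 against 18 °C, igfbp2a among them (adjusted p = 0.0496) and eif4ebp2 not (adjusted p = 0.0751), which also lost its call after scaling (0.287) and quantile normalization (0.114). Deviations of same-numbered samples correlated at 0.415 between 26 and 34 °C and at -0.151 and -0.133 between 18 °C and these, so the numbers were not taken to pair the samples, and whether some share a source is not known.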
